A study of Arabidopsis thaliana with 24 samples.

Results

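The plastid genome of Arabidopsis encodes 44 listed genes of the photosynthetic apparatus, and their transcript signal was followed here over 8 groups of seedlings. A gene was taken as a member where the annotation supplied for the array pairs a probe set, the unit of measurement for a transcript, with that gene alone. Of the 44 listed genes, 43 had such a probe set, out of 22810 probe sets on the array. The probe set of ndhB is paired with both copies of that gene and was kept out of the counts. The probe set of ndhF lay at the floor of the data on all 24 arrays, which left 42 members among 15757 tested features.

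The series compared auxin responses in Arabidopsis thaliana seedlings of the Columbia ecotype. Wild-type seedlings (Col) were set beside nph4-1, which is mutant in ARF7, arf19-1, which is mutant in ARF19, and the double mutant nph4-1 arf19-1. ARF7 and ARF19 are auxin response factors, which are transcription factors. All seedlings grew for 7 days in shaken liquid Murashige and Skoog medium with 1.5% sucrose under a day of 16 h light and 8 h dark. Auxin was then given to each genotype as 5 µM IAA (indole-3-acetic acid), or ethanol alone as control, for 2 h at 24 °C. Each of the 8 groups had 3 arrays of total RNA. Whether a group's 3 arrays stand for 3 cultures is not stated, and the p-values may therefore measure technical spread alone. Whole seedlings were measured, so fewer green cells and less plastid RNA per cell cannot be told apart. Each mutant background is represented by a single allele or allele pair.

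The products of these genes sit in the thylakoid membrane or, for rbcL, in the stroma. Photosystem II takes electrons from water, the cytochrome b6f complex passes them on, photosystem I raises them to ferredoxin, and the ATP synthase uses the proton gradient that builds up on the way. The NDH complex returns electrons from ferredoxin to the plastoquinone pool, and Rubisco fixes carbon dioxide. Each complex also needs subunits made in the nucleus. Many plastid genes are transcribed together in long units, from which the single messages are cut, and most plastid messages carry no stable poly(A) tail.

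Values are log2 signal as the authors deposited them, with a floor at 5.64, and probe sets were compared only with themselves, since the brightness of different probe sets is not an abundance. The arrays had medians of 6.645 to 6.758, and 35.6% to 36.7% of their values lay at the floor. At most 0.0213% of the values above the floor were identical between any pair of arrays. Col control 2 and Col control 3 are corrected tables, per the labels, which replaced those first released. Green tissue was represented by 7 nuclear photosystem genes of 46 listed, all above the floor on all 24 arrays, and root tissue by 3 genes of 23 listed (PYK10, EXPA7 and EXPA18), also above the floor on all arrays.

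Across the 8 groups the plastid genes were lowest in Col. The median of the members' group means was 9.91 in Col control and 9.62 in Col with IAA. It was 10.69 and 10.22 in nph4-1 without and with IAA, 10.33 and 10.11 in arf19-1, and 10.38 and 10.09 in nph4-1 arf19-1. The lowest of a member's 8 group means was that of Col with IAA for 30 members and that of Col control for 9, out of 42. Both Col means lay below all 6 mutant means for 29 of 42 members, against 10.5% of all tested features. The 3 members whose lowest mean was not in Col had it in arf19-1 with IAA.

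**Figure D1:**
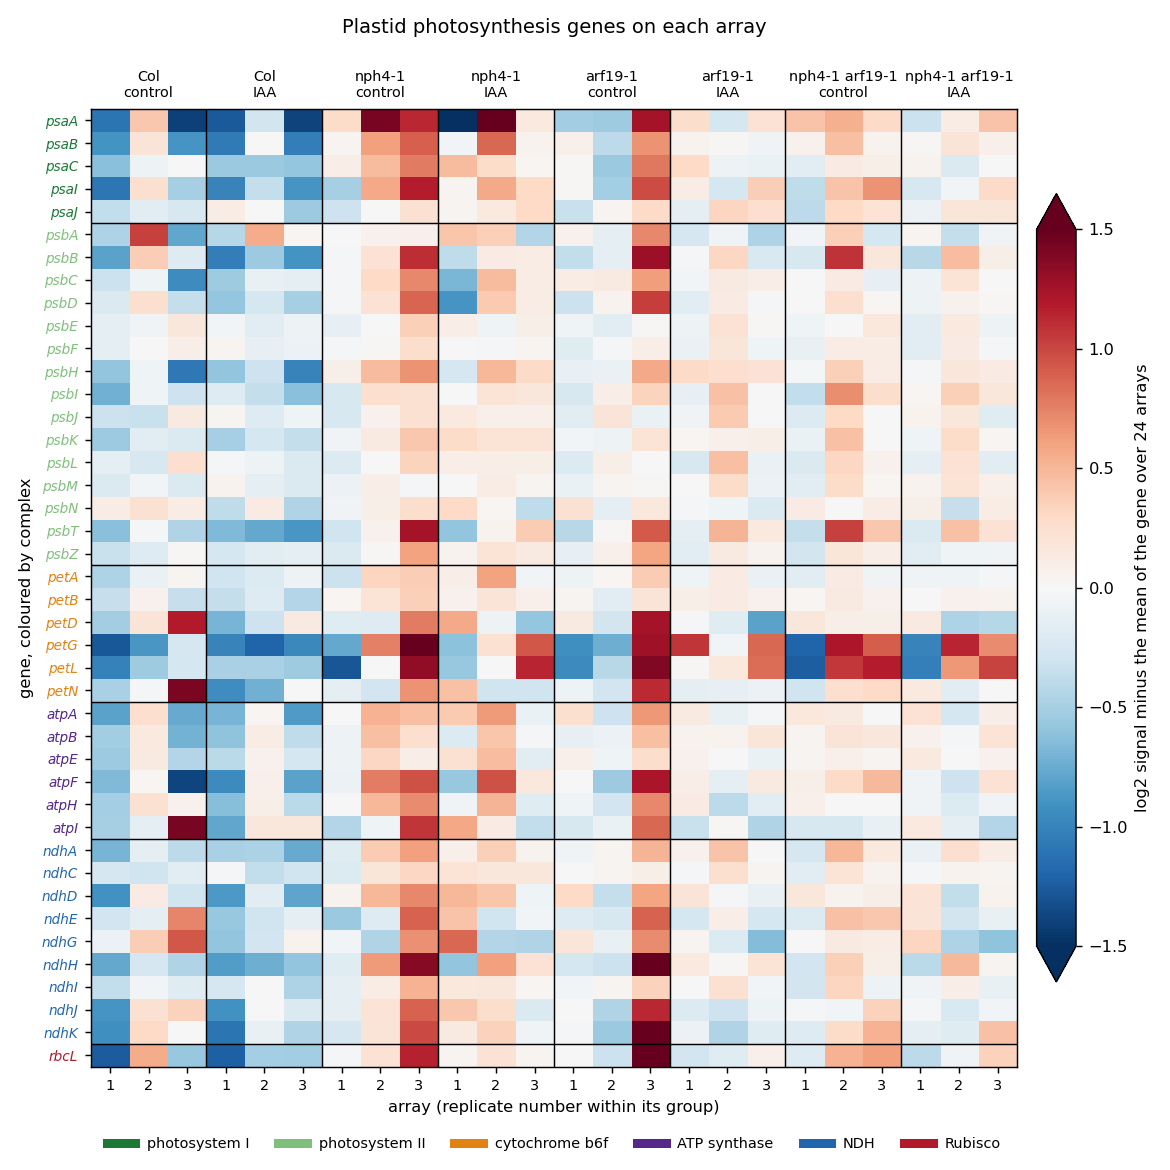
Log2 signal of 42 plastid genes (rows, coloured by complex) on 24 arrays (columns, in 8 groups of 3), as the difference from each gene's mean over the 24 arrays, with the colour scale ending at 1.5 log2 units in each direction. Of the 42 rows, 28 to 41 are blue on each Col array other than Col control 2, where 20 are red and 22 blue, and nph4-1 control 3 and arf19-1 control 3 are red over 41 and 40 rows.

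Photosystem II had 15 members, and psbH, a small phosphorylated subunit, and psbK, a small subunit near its core, separated the genotypes most clearly among them. The psbH signal was 10.39, 10.91 and 9.91 on the Col control arrays and 10.39, 10.67 and 9.98 with IAA. In nph4-1 it was 11.07, 11.45 and 11.65 without IAA and 10.72, 11.48 and 11.26 with IAA. All nph4-1 arrays of psbH therefore lay above the Col arrays of the same treatment. In nph4-1 arf19-1 psbH was 10.95, 11.33 and 11.09 without IAA and 10.96, 11.15 and 11.10 with IAA, again above every Col array of the same treatment. In arf19-1 it was 10.87, 10.88 and 11.55 without IAA, where 2 arrays lay below Col control 2, and 11.26, 11.23 and 11.19 with IAA.

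The psbK signal was 11.27, 11.64 and 11.59 on the Col control arrays and 11.31, 11.55 and 11.45 with IAA. It was 11.76, 11.94 and 12.22 in nph4-1 without IAA and 12.08, 12.01 and 12.02 with IAA. It was 11.77, 11.73 and 12.02 in arf19-1 without IAA and 11.84, 11.89 and 11.90 with IAA. For psbK no mutant array overlapped the Col arrays of its treatment. In the double mutant psbK was 11.71, 12.25 and 11.82 without IAA and 11.75, 12.08 and 11.84 with IAA.

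The other photosystem II genes spread from steady to variable. Both subunits of cytochrome b559 were steady, psbE between 11.78 and 12.30 and psbF between 12.26 and 12.71 over the 24 arrays. The small subunit genes psbM (11.98 to 12.47), psbL (9.33 to 10.02) and psbJ (10.58 to 11.31) were also steady, as was psbN (7.22 to 7.97), which encodes an assembly factor. The genes of the inner antenna proteins covered a wider range, psbB from 9.04 to 11.36 and psbC from 10.05 to 11.71. The genes of the reaction centre proteins ran from 9.26 to 11.06 for psbA and from 8.73 to 10.65 for psbD. The remaining small subunits ran from 10.19 to 11.60 for psbI, from 7.51 to 9.63 for psbT and from 10.59 to 11.53 for psbZ.

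The psbA message, which encodes the reaction centre protein that is replaced after light damage, did not follow the order of the genotypes. Its signal was 9.57, 11.06 and 9.26 on the Col control arrays and 9.61, 10.59 and 10.07 with IAA. It was 10.03, 10.10 and 10.12 in nph4-1 control and 10.46, 10.40 and 9.60 with IAA. Col control alone spanned more than the other groups of psbA, and every mutant group overlapped the Col group of its treatment.

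The cytochrome b6f complex held the most variable members, petL and petG, and also petB, the member with the third lowest spread within groups. The petB gene, for the cytochrome b subunit, had values of 12.41, 12.83 and 12.41 in Col control and of 12.40, 12.57 and 12.32 in Col with IAA. In nph4-1 they were 12.79, 12.97 and 13.12 without IAA and 12.82, 12.96 and 12.84 with IAA. With IAA all petB values of the mutants lay above all Col values, while without IAA Col control 2 lay within the mutant range. In arf19-1 petB was 12.80, 12.59 and 12.96 without IAA and 12.85, 12.88 and 12.82 with IAA, and in the double mutant 12.79, 12.90 and 12.83, then 12.76, 12.83 and 12.81.

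The small subunit genes petL and petG, which neighbour each other in 1 transcription unit, varied widely between the arrays of each mutant control group. The petL signal was 8.13, 8.61 and 8.89 in Col control and 8.66, 8.66 and 8.62 in Col with IAA. In nph4-1 control it was 7.87, 9.16 and 10.48, in arf19-1 control 8.19, 8.73 and 10.54, and in nph4-1 arf19-1 control 7.91, 10.21 and 10.33. Without IAA the mutant arrays of petL thus lay on both sides of Col. With IAA the arf19-1 arrays of petL (9.17, 9.31 and 9.99) lay above Col, while nph4-1 and the double mutant had arrays on both sides. The petG signal was 6.71, 7.10 and 7.73 in Col control, 7.21, 8.73 and 9.71 in nph4-1 control, 7.06, 7.25 and 9.25 in arf19-1 control, and 6.78, 9.19 and 8.88 in nph4-1 arf19-1 control. With IAA petG was 6.97, 6.78 and 7.01 in Col, 7.36, 8.20 and 8.91 in nph4-1, 9.05, 7.94 and 8.84 in arf19-1, and 6.98, 9.12 and 8.68 in the double mutant. The petG values of nph4-1 and arf19-1 with IAA thus lay above those of Col, while the double mutant overlapped Col.

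The gene of cytochrome f, petA, ran from 10.86 to 11.93 over the 24 arrays. Among the dimmer members, petD (subunit IV) was 6.40, 7.11 and 8.10 in Col control and petN (a small subunit) 6.46, 6.91 and 8.35, so Col control 3 stood above both other arrays of its group. Both genes were dim on the other arrays too, petD running from 6.11 to 8.16 and petN from 6.01 to 8.35.

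**Figure D2:**
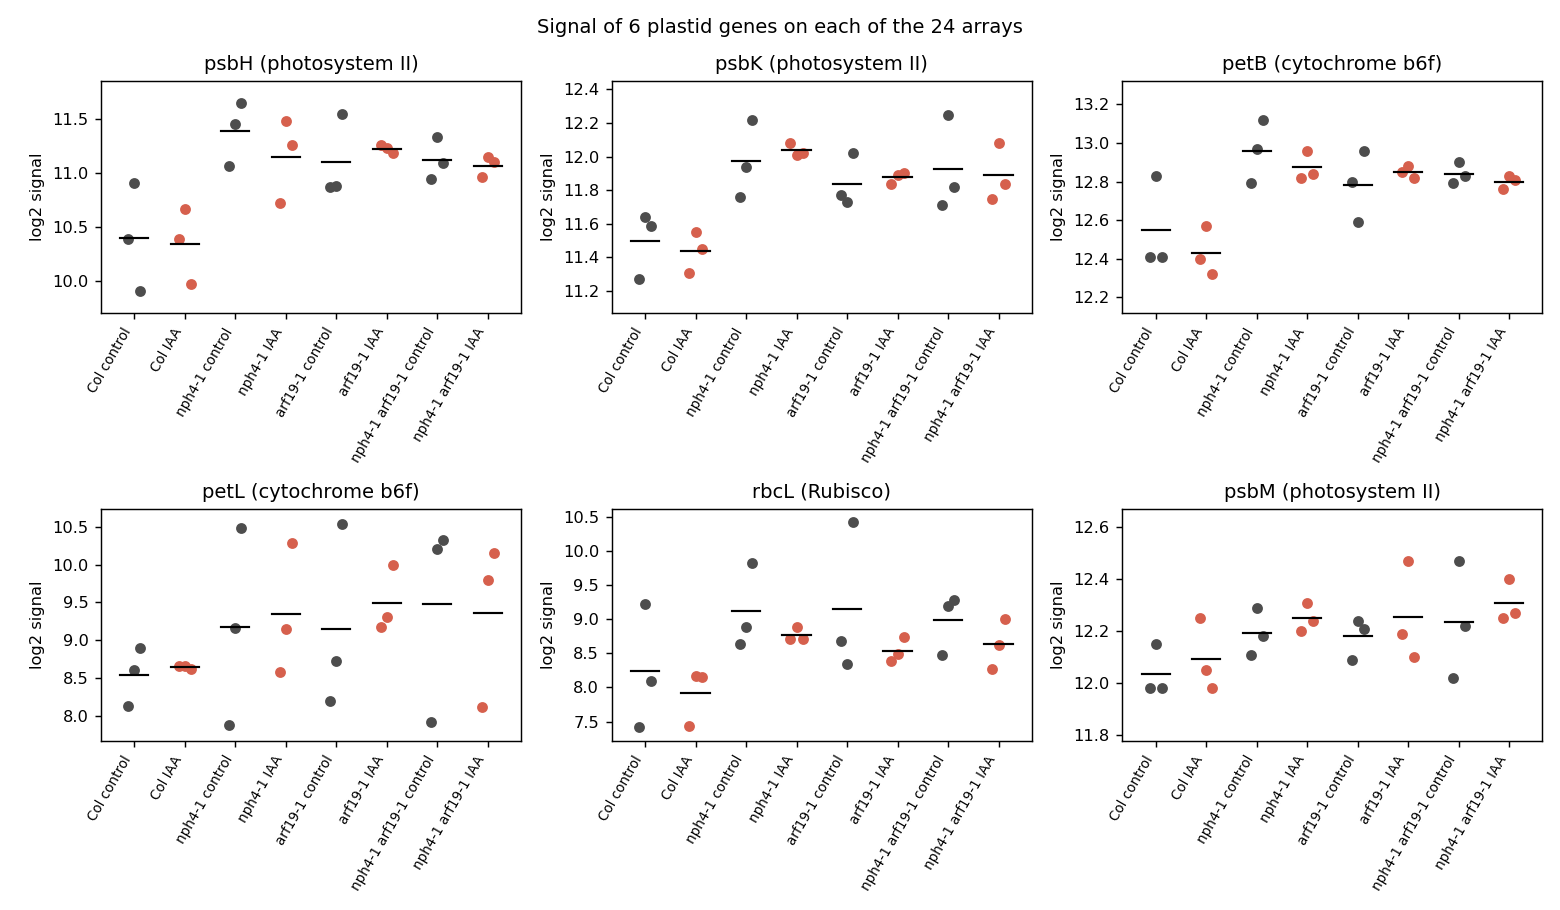
Log2 signal of 6 plastid genes on each of the 24 arrays (points, dark grey for control and red for IAA, with the mean of each group of 3 as a line). The Col arrays of psbK lie below all mutant arrays of the same treatment, while petL arrays of nph4-1 control range from 7.87 to 10.48.

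Photosystem I had 5 members. The reaction centre gene psaA was 8.76, 10.26 and 8.46 in Col control, 10.13, 11.28 and 10.99 in nph4-1 control, and 8.32, 11.56 and 10.01 in nph4-1 with IAA. Its partner psaB was 10.45, 11.54 and 10.46 in Col control, 10.28, 11.35 and 10.30 in Col with IAA, and 11.30, 12.20 and 11.39 in nph4-1 with IAA. For both genes Col control 2 was the highest of its group. The gene of the iron-sulfur subunit, psaC, was 7.80, 7.80 and 7.78 in Col with IAA and 8.83, 8.63 and 8.39 in nph4-1 with IAA, with no overlap. The small subunit genes psaI and psaJ ran from 8.74 to 11.00 and from 11.06 to 11.92.

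The 6 ATP synthase members ran side by side except atpI. The genes of the catalytic head, atpA (10.41 to 11.91), atpB (12.09 to 13.25) and atpE (12.37 to 13.37), and the membrane subunit genes atpF (8.72 to 11.32) and atpH (9.71 to 11.07) were on balance lower in Col. The atpI gene, for a further membrane subunit, was 5.92, 6.28 and 7.84 in Col control, at the floor on Col IAA 1, and 6.58 on both other Col IAA arrays. Col control 3 gave the highest of the 24 atpI values and the lowest of the 24 atpF values.

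Of the 9 NDH members tested, ndhA and ndhC were among the steadier ones. The ndhA signal was 9.29, 9.30 and 9.02 in Col with IAA, 9.85, 10.14 and 9.83 in nph4-1 with IAA, and 9.68, 10.03 and 9.89 in nph4-1 arf19-1 with IAA. The ndhC signal was 10.83, 10.48 and 10.54 in Col with IAA and 11.05, 11.01 and 11.02 in nph4-1 with IAA. Neither gene's nph4-1 values overlapped the Col values in this treatment. The ndhD signal was 9.45, 10.15 and 9.52 in Col with IAA and 10.81, 10.73 and 10.25 in nph4-1 with IAA. The others ran from 7.48 to 8.93 for ndhE, 7.57 to 9.15 for ndhG, 5.67 to 8.02 for ndhH, 11.62 to 12.61 for ndhI, 7.36 to 9.40 for ndhJ and 6.44 to 9.05 for ndhK. The probe set shared by both ndhB copies ran from 6.12 to 8.36.

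The rbcL gene, for the large subunit of Rubisco, was 7.42, 9.22 and 8.10 in Col control and 7.44, 8.16 and 8.15 in Col with IAA. It was 8.64, 8.88 and 9.82 in nph4-1 control and 8.71, 8.88 and 8.71 with IAA. It was 8.68, 8.35 and 10.42 in arf19-1 control and 8.38, 8.49 and 8.74 with IAA. With IAA the rbcL values of the mutants lay above those of Col, while without IAA Col control 2 lay among them. In the double mutant rbcL was 8.48, 9.19 and 9.28 without IAA and 8.27, 8.62 and 9.01 with IAA.

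The spread between arrays of a group was large for these genes. The pooled standard deviation within groups, over 16 degrees of freedom, had a median of 0.34 log2 units over the 42 members, with quartiles of 0.23 and 0.54, against 0.15 over all tested features. It lay above the median of all features for 37 of 42 members and above their 95th percentile for 26. The highest values were 0.96 for petL, 0.95 for petG and 0.84 for psaA, and the lowest 0.13 for psbF, 0.13 for psbM and 0.14 for petB. By complex the median was 0.24 in photosystem II, 0.36 in the ATP synthase, 0.44 in photosystem I, 0.46 in NDH and 0.55 in cytochrome b6f, and rbcL stood at 0.61. Among brighter features, with a mean over 9, the median was 0.28 for 29 members and 0.13 for 3221 features. The 26 other plastid genes had a median of 0.40, 13 mitochondrial probe sets 0.28 and 7 nuclear photosystem genes 0.11.

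**Figure D3:**
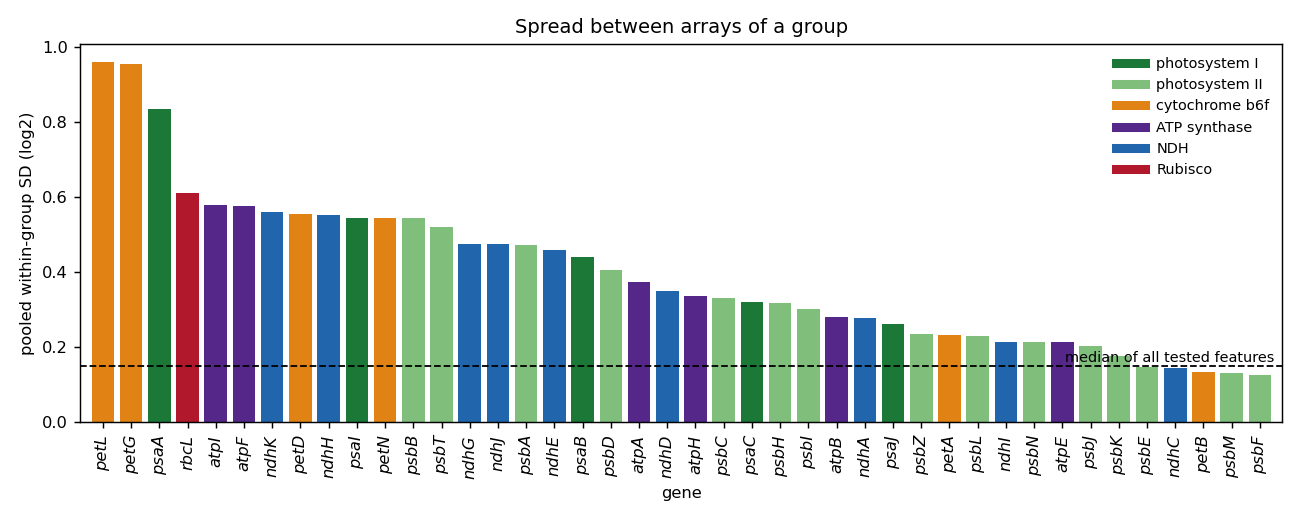
Pooled within-group standard deviation of log2 signal (bars, over 8 groups of 3 arrays) for 42 plastid genes in falling order, coloured by complex, with the median of all 15757 tested features as a dashed line at 0.15. The bars run from 0.96 for petL to 0.13 for psbF, and 5 of 42 lie below the line.

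The spread was not the same in all groups. The median standard deviation of the members was 0.47 in arf19-1 control, 0.39 in Col control and 0.38 in nph4-1 control, where all features had 0.12, 0.18 and 0.10. It was lowest in arf19-1 with IAA at 0.17 and in nph4-1 arf19-1 with IAA at 0.17, where all features had 0.08 and 0.11. In each of the 4 genotypes the members' median was higher without than with IAA. It was 0.24 in Col with IAA, 0.32 in nph4-1 with IAA and 0.22 in nph4-1 arf19-1 control, where all features had 0.13, 0.15 and 0.10. The median of all features was also higher without IAA in Col and arf19-1, but lower without IAA in nph4-1 and the double mutant.

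On single arrays the members deviated from their group means together. On nph4-1 control 1 all 42 members lay below the mean of their group, with a median deviation of -0.35. Of the members 39 had their lowest value of the group there, against 38.3% of all features. On arf19-1 control 3 the median deviation was 0.45 and 38 of 42 members had their highest value, against 37.9% of all features. On nph4-1 control 3 it was 0.34, with 36 of 42 highest, against 37% of all features. In Col control it was -0.29 on array 1, 0.25 on array 2 and 0.04 on array 3. On array 2, 26 members had their highest value, against 33.2% of all features. The median deviation of all features stayed within -0.02 and 0.02 on every array.

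The plastid genes outside the photosynthesis list shifted alike, by -0.50 on nph4-1 control 1, 0.50 on nph4-1 control 3 and 0.47 on arf19-1 control 3. The mitochondrial probe sets shifted by -0.19, 0.47 and 0.32 on these 3 arrays. The nuclear photosystem genes stayed within -0.14 and 0.10 on all arrays. Whether the shifts of the organelle lists share a source was not tested.

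**Figure D4:**
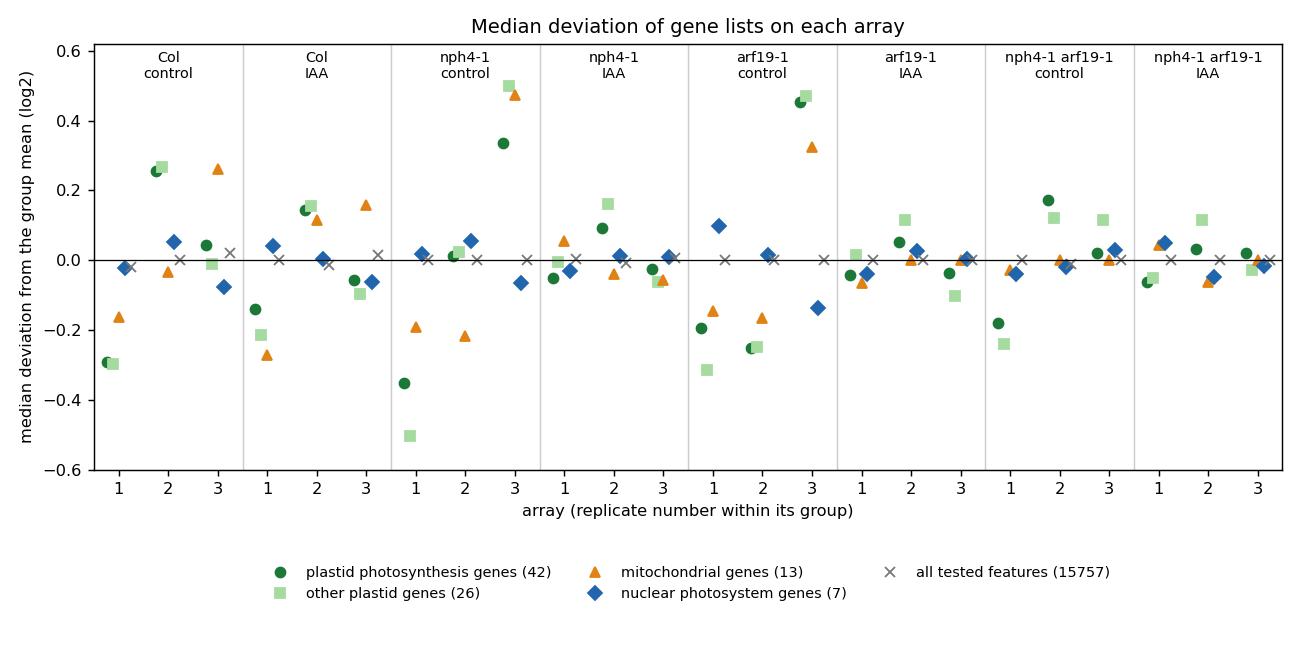
Median deviation of log2 signal from the group mean on each of 24 arrays, for 42 plastid photosynthesis genes, 26 other plastid genes, 13 mitochondrial probe sets, 7 nuclear photosystem genes and all 15757 tested features. Both plastid lists reach above 0.3 on nph4-1 control 3 and arf19-1 control 3, where the nuclear photosystem genes lie below 0 and all features at 0.

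Members also differed in how closely they moved with each other over the 24 arrays, after the group means were taken out. These correlations are a description over arrays that the members share. The median Pearson correlation was 0.65 over 56 pairs in the same transcription unit, 0.50 over 140 pairs of the same complex in different units and 0.49 over the other 665 pairs. The closest pairs were petG with petL at 0.94, psaB with petB at 0.94, and ndhK with rbcL at 0.93. The lowest was psaA with ndhG at -0.32. Within the psbB, psbT, psbH, petB and petD unit the 10 pairs ran from -0.07 to 0.90, and within the psbE, psbF, psbL and psbJ unit the 6 pairs ran from 0.63 to 0.91. Members correlated with the other plastid genes at a median of 0.50, with mitochondrial probe sets at 0.41, with nuclear photosystem genes at -0.19 and with all features at 0.00.

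The first comparison asked whether 2 h of IAA altered these transcripts, and no member passed the test in any genotype. The test was limma's moderated test on the 8 group means over all 24 arrays, two-sided, with Benjamini-Hochberg adjustment over the 15757 features and a threshold of 0.05. The count was 0 of 42 in Col, where 12.9% of all features passed, and 0 in nph4-1 (2.52%), in arf19-1 (10.1%) and in nph4-1 arf19-1 (0.419%). At an unadjusted p under 0.05 there were 2 members in Col, against 23.5% of all features, and 0 in nph4-1 (11.8%), in arf19-1 (18.5%) and in the double mutant (4.68%). The members had a larger spread within groups, at a median of 0.34 against 0.15, so these shares do not show a smaller response. Without Col IAA 2 the count in Col was 1. The signs leaned down, with 32, 31, 27 and 37 of 42 members below 0 in Col, nph4-1, arf19-1 and the double mutant, and medians of -0.14, -0.11, -0.11 and -0.08 against 0.00, 0.00, -0.01 and 0.00 over all features. The size of the lean moved with single arrays. The median was -0.01 in Col without Col control 2, with 21 of 42 members above 0. It was 0.08 in nph4-1 without nph4-1 control 3 and 0.10 in arf19-1 without arf19-1 control 3. In the double mutant it was 0.02 without nph4-1 arf19-1 control 2. Each of these was the control array where most members were highest, so leaving it out raises the difference. Other omissions took the medians down to -0.28 in Col, -0.32 in nph4-1, -0.30 in arf19-1 and -0.16 in the double mutant.

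The largest differences with IAA were within the array spread. In Col petN gave -0.85 ± 0.40 (log2, standard error, n = 3 per group, adjusted p = 0.20) and ndhG -0.68 ± 0.35 (adjusted p = 0.25). The petN arrays were 6.46, 6.91 and 8.35 without and 6.01, 6.22 and 6.95 with IAA, which overlap. In nph4-1 psaA gave -0.84 ± 0.60 and ndhH -0.54 ± 0.40, in arf19-1 petG gave 0.76 ± 0.69 and petD -0.70 ± 0.41, and in the double mutant petD gave -0.36 ± 0.41 and rbcL -0.35 ± 0.44. The psbA difference was 0.13 ± 0.34 in Col, 0.07 in nph4-1, -0.47 in arf19-1 and -0.14 in the double mutant, and rbcL gave -0.33 ± 0.44 in Col, -0.34 in nph4-1 and -0.61 in arf19-1. The IAA arrays lay wholly on one side of the control arrays for psbT in Col and atpH in the double mutant, both lower, and for no member in nph4-1 or arf19-1. Among all features the same held for 20.6% in Col, 15.1% in nph4-1, 28.2% in arf19-1 and 11.2% in the double mutant.

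The second comparison set each mutant against Col without IAA. Members were on balance higher in the mutants, and few passed the test. In nph4-1 psbH was higher by 0.99 ± 0.23, which is 1.98-fold (adjusted p = 0.029), and petB by 0.41 ± 0.10, which is 1.33-fold (adjusted p = 0.037). These 2 of 42 members compare with 1.21% of all features called higher. In arf19-1 no member passed, against 0.336% of all features. The largest there were rbcL at 0.91 ± 0.44 (adjusted p = 0.35) and atpF at 0.89. In nph4-1 arf19-1 psbH was higher by 0.72 ± 0.23 (adjusted p = 0.045) and psbK by 0.43 ± 0.13 (adjusted p = 0.038), 2 of 42 against 7.03% of all features. No member was called lower in limma in any of the 3. At an unadjusted p under 0.05 there were 17 members in nph4-1, 11 in arf19-1 and 10 in the double mutant, against 18.3%, 14.6% and 29.2% of all features in either direction. The larger spread of the members limits these counts as well.

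The members' median difference from Col was 0.46 in nph4-1, 0.35 in arf19-1 and 0.30 in the double mutant, where all features had medians of 0.00, 0.01 and 0.00. The sign was above 0 for 36, 36 and 37 of 42. These 3 comparisons share the Col control arrays, so they are not independent of each other. All 3 mutant arrays lay above all 3 Col arrays for 5 members in nph4-1 (psaC, psbC, psbH, psbK and ndhH), 4 in arf19-1 (psbC, psbK, ndhA and ndhC) and 3 in the double mutant (psbH, psbK and atpF). That is 5, 4 and 3 of 42 beside 11.1%, 7.09% and 14.7% of all features.

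These calls rested on single arrays. Without Col control 2, the highest Col array for 26 members, 12 members passed in nph4-1, 6 in arf19-1 and 10 in the double mutant. Without Col control 1 or Col control 3 none passed in any of the 3. Without nph4-1 control 1 the count in nph4-1 was 4, and without nph4-1 control 2 or 3 it was 0. In the double mutant it was 0 without nph4-1 arf19-1 control 2 or 3. It was 1 without any of 10 arrays outside that comparison, which are Col IAA 1, nph4-1 control 2, nph4-1 IAA 3, arf19-1 control 2, and all arf19-1 and nph4-1 arf19-1 arrays with IAA. Over the omissions the median difference ran from 0.23 to 0.63 in nph4-1, from 0.15 to 0.52 in arf19-1 and from 0.20 to 0.46 in the double mutant.

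The same comparison among IAA-treated seedlings was added after the values had been seen. Here 8 of 42 members were higher in nph4-1, against 8.35% of all features, 1 in arf19-1 against 0.711%, and 4 in nph4-1 arf19-1 against 10.6%. In nph4-1 they came from 4 of the 6 complexes. For photosystem I, psaB was higher by 0.98 ± 0.32 (adjusted p = 0.044) and psaC by 0.83 ± 0.24 (adjusted p = 0.022). For photosystem II, psbH was higher by 0.80 ± 0.23 (adjusted p = 0.023) and psbK by 0.60 ± 0.13 (adjusted p = 0.0033). The other 4 were petB at 0.44 ± 0.10 (adjusted p = 0.0052), ndhA at 0.74 ± 0.21 (adjusted p = 0.019), ndhC at 0.41 ± 0.11 (adjusted p = 0.018) and ndhD at 0.89 ± 0.26 (adjusted p = 0.023).

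In arf19-1 with IAA the called gene was petB at 0.42 ± 0.10, which is 1.34-fold (adjusted p = 0.045). In the double mutant with IAA psbH was higher by 0.72 ± 0.23 (adjusted p = 0.032), psbK by 0.45 ± 0.13 (adjusted p = 0.019), petB by 0.37 ± 0.10 (adjusted p = 0.013) and ndhA by 0.66 ± 0.21 (adjusted p = 0.026). The largest differences from Col with IAA belonged to petG, at 1.24 in nph4-1, 1.69 in arf19-1 and 1.34 in the double mutant with a standard error of 0.69 each, and did not pass. No member of the ATP synthase passed in any comparison, and neither did rbcL, at 0.85 ± 0.44 in nph4-1 with IAA.

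With IAA the median difference was 0.43, 0.35 and 0.37 in nph4-1, arf19-1 and the double mutant, and 42, 39 and 41 of 42 members lay above 0. All 3 mutant arrays lay above all 3 Col arrays for 20, 17 and 15 members, where 15.1%, 13% and 17.9% of all features did. No member lay wholly below Col. By complex the median difference in nph4-1 with IAA was 0.98 in photosystem I, 0.53 in NDH, 0.47 in cytochrome b6f, 0.40 in the ATP synthase and 0.22 in photosystem II. The 3 comparisons share the Col IAA arrays.

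The counts with IAA also moved with single arrays. In nph4-1 the count was 2 without Col IAA 3, 3 without nph4-1 IAA 2 and 5 without Col IAA 1. In the double mutant it was 1 without Col IAA 3, 1 without nph4-1 arf19-1 IAA 2 and 2 without nph4-1 arf19-1 IAA 3. The single call in arf19-1 was absent without any of 15 arrays, among them Col IAA 1, Col IAA 3 and each arf19-1 IAA array, and 2 members passed without any of 4 others (Col control 2, Col control 3, nph4-1 IAA 1 and arf19-1 control 3). The psbK and petB calls in nph4-1 held under each of the 24 omissions, with adjusted p-values of at most 0.021 and 0.036 over all settings tried.

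**Figure D5:**
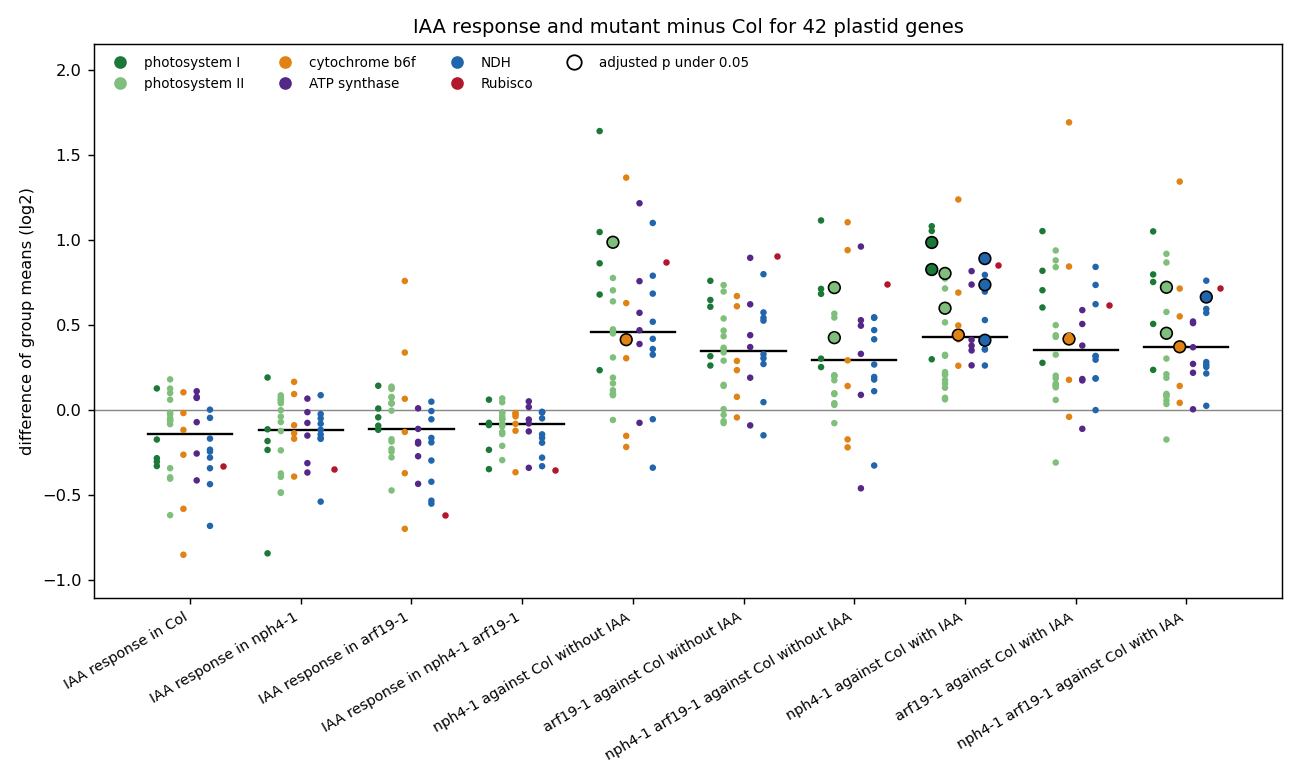
Difference of group means in log2 signal for 42 plastid genes (points, coloured by complex, large with a black edge where limma's adjusted p is under 0.05) in 4 IAA responses and 6 comparisons of a mutant with Col, with the median of the 42 as a line. The medians lie between -0.14 and -0.08 for the IAA responses and between 0.30 and 0.46 for the mutants against Col.

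The third comparison tested whether the IAA response itself differed from that of Col. No member passed in limma, against 2.83% of all features for nph4-1, 0.26% for arf19-1 and 4.06% for the double mutant, and 0 members had an unadjusted p under 0.05 in each, against 13.7%, 4.84% and 12.5% of all features. The largest differences were petN at 0.71 ± 0.56 and ndhG at 0.60 ± 0.49 in nph4-1, petG at 1.02 ± 0.98 and psbA at -0.60 ± 0.49 in arf19-1, and petN at 0.77 ± 0.56 and atpI at 0.46 ± 0.60 in the double mutant. The standard errors ran from 0.14 to 0.98 over the members, so differences of the size seen between genotypes were not detectable for the more variable ones, and a p above the threshold does not show equal responses.

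Genes that act with the members were set beside them. The 26 other plastid genes, mostly for ribosomal proteins and the plastid RNA polymerase, had median differences from Col of 0.65, 0.49 and 0.43 without IAA and 0.52, 0.57 and 0.42 with IAA in nph4-1, arf19-1 and the double mutant. Of these, rps2 (a ribosomal protein) was called in nph4-1 without IAA at 0.98 ± 0.25 (adjusted p = 0.045) and clpP (a protease subunit) in nph4-1 with IAA at 0.71 ± 0.23 (adjusted p = 0.042). The 13 mitochondrial probe sets had medians of 0.01, 0.03 and -0.16 without IAA, and none was called in limma, with 2, 1 and 2 at an unadjusted p under 0.05. Their differences were above 0 for 7, 8 and 3 of the 13. Many lay near the floor, with matR above it on 3 arrays and a nad5 probe set on 1. The brightest, nad4 and cox1, had means of 7.84 and 6.98 in Col control. In the mutants without IAA the means were 8.40, 8.35 and 8.24 for nad4 and 7.26, 7.53 and 7.42 for cox1. The nad1 probe sets above the floor on all 24 arrays went the other way. Their means were 6.80, 6.66 and 6.70 in Col control, 6.28, 6.36 and 6.26 in nph4-1 control, and 6.24, 6.61 and 6.34 in arf19-1 control. In the double mutant control they were 6.27, 6.28 and 6.17. With IAA the medians of the 13 mitochondrial probe sets were -0.004, -0.16 and -0.07.

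Nuclear genes listed beside the members gave median differences from Col on both sides of 0. The 7 nuclear photosystem and light-harvesting genes had median differences from Col of -0.06, -0.07 and 0.05 without IAA and -0.01, -0.15 and -0.03 with IAA. The 1 call among them was LHCB4.3, an antenna gene, lower in arf19-1 with IAA at -0.70 ± 0.15 (adjusted p = 0.017). Of 17 nuclear genes listed for the cytochrome b6f complex, electron carriers, ATP synthase and Rubisco, 4 were tested (ATPC1, ATPC2, RCA and PRK). None of the 4 encodes a cytochrome b6f subunit, an electron carrier or a Rubisco subunit. Their medians were -0.09, -0.19 and -0.10 without IAA. With IAA their medians were -0.18, -0.21 and -0.17. Among them ATPC2, for an ATP synthase subunit, was lower in the double mutant at -0.60 without and -0.55 with IAA (adjusted p = 0.015 and 0.016). Its means there were 5.73 and 5.74, near the floor of 5.64, against 6.33 and 6.29 in Col. ATPC2 lay above the floor on 20 of 24 arrays. The brighter ATPC1 had means of 12.08 and 12.05 in the double mutant against 12.05 and 11.93 in Col.

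Of the nuclear NDH genes 5 were tested. Most of their calls were of 1 gene, NdhS, while NdhN and NdhL were not called in any comparison. For IAA, 1 of 5 was called in Col and 1 in arf19-1, where 12.9% and 10.1% of all features were. Against Col, 2 of 5 were called in the double mutant without IAA, in nph4-1 with IAA and in the double mutant with IAA. Of all features 13.3%, 14% and 19.9% were called in these 3, in either direction. In nph4-1, arf19-1 and the double mutant their median differences from Col were -0.15, -0.13 and -0.27 without IAA. With IAA the medians were 0.06, -0.17 and -0.03. NdhS, a subunit of the ferredoxin binding part, fell with IAA in Col by 0.27 ± 0.08 (adjusted p = 0.034) and in arf19-1 by 0.43 ± 0.08 (adjusted p = 0.0012). It was higher than Col in the double mutant without IAA by 0.40 (adjusted p = 0.0026), in nph4-1 with IAA by 0.55 (adjusted p = 6.6e-05) and in the double mutant with IAA by 0.66 (adjusted p = 4.6e-06). PIFI, an NDH associated protein, was higher with IAA in nph4-1 by 0.33 (adjusted p = 0.019) and in the double mutant by 0.31 (adjusted p = 0.02). CRR21, which edits an ndh message, was lower in the double mutant without IAA at -0.57 (adjusted p = 0.049). OTP84, the 1 tested gene of plastid RNA processing, and RCA, the Rubisco activase gene, were not called in limma in any comparison.

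Of the 3 root genes, EXPA7, a root hair expansin, was lower than Col in the double mutant at -0.64 ± 0.19 without IAA (adjusted p = 0.031) and at -1.03 ± 0.19 with IAA (adjusted p = 0.00039), and no root gene was called in either single mutant. The root genes did not move together in the double mutant. EXPA18, also an expansin, had means of 7.29 without and 7.28 with IAA there, against 7.92 and 7.83 in Col. PYK10 went the other way, with 12.82 and 12.94 against 12.70 and 12.74 in Col. The median of the 3 was 0.06, 0.29 and -0.63 without IAA in nph4-1, arf19-1 and the double mutant, while the plastid members were above Col at the median in all 3. The part of root and shoot proportions in the plastid differences was not tested.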

How the data were processed

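Total RNA of 24 seedling samples was hybridised to 1-colour oligonucleotide arrays. The authors deposited 1 table of log2 signal per probe set and array with a floor of 50 in linear units; their summary and scaling methods are not given in the sources used here, and the number of arrays limits the precision. Groups came from the labels. The 64 control probe sets and the 6989 at the floor on all arrays were left out, and 15757 features were fitted with limma 3.58.1 in R 4.3.3 (lmFit on 8 group means, eBayes with trend and robust, 16 residual degrees of freedom). Probe sets were named by the platform annotation (13513 with 1 gene, 503 with several, 8794 not listed), updated through the RefSeq gene table. The fit was tested on simulated data.

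The members, gene lists and transcription units were chosen with earlier results of these data known. Members were named where they were called (up to 10 per comparison), otherwise the 2 largest; for the spread, the 3 highest and 3 lowest; psbA and rbcL always; and up to 3 called genes from each other list. Nuclear genes of plastid transcription were not analysed here, and mitochondrial genes were taken by symbol. Replicate numbers were not taken to pair arrays. Alternatives covered scaling, filters, the variance model, weights and omitted arrays.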

Additional observations from a re-analysis of the deposited data

How the results depend on the processing

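The members' median difference from Col stayed above 0 under every setting run, between 0.25 and 0.57 apart from the omission of 1 array, while the counts of members called moved. For nph4-1 without IAA (2 called) the count was 1 with equal array medians or plain eBayes, 4 with the replicate block, and 0 without the filter, with only the arrays compared, without the 2 arrays of lowest weight (nph4-1 IAA 1 and Col control 3, an alternative chosen after seeing the data) or at an adjusted p under 0.01. For the double mutant without IAA (2 called) it was 1 with plain eBayes, 4 with the replicate block, and 0 with quantile normalization and under the other 4 settings just named. For nph4-1 with IAA (8 called) it was 5 without the filter, 5 with only the arrays compared, 13 with array quality weights and 2 at the stricter threshold. For arf19-1 with IAA (1 called) it was 4 with the replicate block, 4 with weights, 2 without the 2 arrays of lowest weight, and 0 with equal medians, no filter, a minimum mean signal, plain eBayes or the stricter threshold. For the double mutant with IAA (4 called) it was 9 with only the arrays compared and 0 at the stricter threshold. Of the IAA responses, arf19-1 gave 4 with array quality weights, among them petG at 1.34 (adjusted p = 0.017), and a median of 0.05 in place of -0.11, while that of Col was -0.04 in place of -0.14. The causes were not tested.

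Leaving out 1 array at a time gave 0 to 1 for IAA in Col, 0 to 12, 0 to 6 and 0 to 10 for nph4-1, arf19-1 and the double mutant without IAA, and 2 to 9, 0 to 2 and 1 to 5 with IAA. The median spread ran from 0.33 to 0.35. The difference in response turned sign without the 2 arrays of lowest weight for petN (-0.089) and ndhG (-0.095) in nph4-1 and for atpI in the double mutant (-0.11), the last also without Col control 3 (-0.11), where the omissions ran up to 0.84. The labels do not say that replicate numbers pair arrays. Deviations from the group means had a median correlation of 0.16 between same-numbered arrays (lowest -0.50) and -0.06 between others, over the members 0.25 and -0.10, and 18 of 24 arrays correlated best with their own number, a hint of pairing from the data and not from the design. The replicate block gave the counts of 4 above and, with IAA, 10 in place of 8 for nph4-1 and 6 in place of 4 for the double mutant.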
